A study of Drosophila melanogaster with 288 samples.

Results

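The 10 nicotinic acetylcholine receptor subunit genes of Drosophila melanogaster, nAChRalpha1 to nAChRalpha7 and nAChRbeta1 to nAChRbeta3, were followed through embryogenesis in single embryos. They were taken by name from the 17698 genes of the count table. The study collected 288 single samples of the w1118 line, without treatment, to measure how gene expression varies between embryos of the same age and genotype. The samples fell into 8 windows of age after egg laying, with 39 samples at 2-3h, 38 at 5-6h, 36 at 8-9h, 31 at 11-12h, 32 at 14-15h, 30 at 17-18h, 39 at 20-21h and 43 at 23-24h. Expression was measured by BRB-seq, in which an oligo-dT primer gives each sample its own barcode, many samples are sequenced together as one library, and the reads come from the 3′ ends of transcripts. Each whole embryo, or egg, was 1 sample, so all its tissues were mixed.

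Nicotinic receptors are ion channels built from subunits around a central pore, and they open when acetylcholine binds between subunits. In insects acetylcholine is the main fast excitatory transmitter of the central nervous system, while glutamate serves at the junction between nerve and body wall muscle, the reverse of the arrangement in vertebrates. The alpha subunits carry a pair of neighbouring cysteines that contributes to the acetylcholine site, the beta subunits lack it, and the receptors are the targets of the neonicotinoid and spinosyn insecticides.

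Of the 288 samples, 38 fell below the limits of 300000 counts and 4500 genes with a count above 0, and 97 formed a small cluster in a multidimensional scaling of those that passed, drawn here as the quadrant of negative first and positive second coordinates. The study set a cluster in the same corner of its own scaling aside as unfertilized eggs. Its gene set and scaling were not rebuilt exactly, so the numbers of failed, small-cluster and used samples differ from the study's. The other 153 embryos were used. They numbered 11, 24, 27, 14, 21, 18, 24 and 14 in the 8 windows, and their totals ran from 407201 to 25744647 counts with a median of 6406722. They came from 4 libraries, named E1_1, E1_2, E2 and E3, of which the first pair holds no used embryo at 23-24h. With the receptor genes left out, 119 of the embryos correlated best with the mean of their own window, and 34 with that of another window. Among these were 2 embryos labelled 5-6h, both of library E2, that were most alike 14-15h, 2 labelled 2-3h that were most alike 17-18h and 11-12h, and 6 labelled 20-21h or 23-24h that were most alike 2-3h. Calls of receptor genes that turn on these embryos are given with and without them. The family sums, shares of reads, median changes and spread between embryos are not given without them. In a whole embryo, fewer cells of a type and less RNA per cell cannot be told apart.

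The genes lie on 4 chromosome arms (positions from Ensembl release 115 of the BDGP6 genome). nAChRalpha1 (3R, 24393896 to 24457157), nAChRalpha2 (3R, 24485428 to 24491147) and nAChRbeta2 (3R, 24509228 to 24515106) are neighbours within 121211 bp, with nAChRalpha2 on the plus strand between the other two on the minus strand. The gaps between them are 28270 and 18080 bp. nAChRalpha3 (8276200 to 8367169) and nAChRalpha7 (19327075 to 19348447) are on X, nAChRalpha4 (23206669 to 23287448) and nAChRbeta1 (4429349 to 4435993) on 3L, and nAChRalpha5 (14040170 to 14094401), nAChRalpha6 (9793317 to 9886250) and nAChRbeta3 (545129 to 547096) on 2L. Their spans differ from 1968 bp for nAChRbeta3 to 92934 bp for nAChRalpha6.

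nAChRbeta3, the most divergent of the fly subunits, had a count of 0 in all 288 samples. At the median depth of a window, a count of 0 allows at most 0.295 to 1.53 cpm (a sample's counts of the gene over its total, times 1e+06). All 1532 of its exonic bases are also exonic bases of Ets21C, a transcription factor gene on the opposite strand, and the strand setting of the authors' counting is not given in the sources used here. Reads from the pair can therefore not be told apart, and the 0 is a statement about assigned reads. nAChRalpha3 shares 251 of 10506 exonic bases with CG1636 and nAChRalpha4 shares 247 of 6050 with a long noncoding RNA, both on the opposite strand. The exons of the other 7 genes overlap no other gene's exons. The remaining 9 genes passed the filter on low counts, a count above 0 in at least 10 of the used embryos, which left 15877 genes to test.

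The summed level of the family was lowest at 8-9h and highest at 14-15h. Its median over embryos was 57.1 cpm at 2-3h, 34.1 at 5-6h, 33.05 at 8-9h, 76.2 at 11-12h, 254 at 14-15h, 126 at 17-18h, 194 at 20-21h and 181 cpm at 23-24h. The windows from 17-18h on also held embryos with few receptor reads. The lowest family sum was 35.6 cpm at 14-15h, 10.1 cpm at 17-18h, 1.44 cpm at 20-21h and 7.54 cpm at 23-24h. From 17-18h on, these lowest values came from shallow embryos, with totals of 793246, 692506 and 530176 counts. Those of 20-21h and 23-24h were most alike 2-3h. The make-up of the family's summed counts shifted with age. nAChRalpha4 gave at most 5.70% of them in any window from 14-15h on, against 46.8% at 2-3h. nAChRbeta1 gave 40.2% at 11-12h against 6.44% at 2-3h. Its 2-3h share rested mostly on the embryos most alike 11-12h and 17-18h, at 58.4 and 34.7 cpm. The 2-3h embryos most alike their own window had a mean of 0.624 cpm. nAChRalpha6 gave 17.9% at 14-15h against 2.76% at 11-12h. These are shares of reads, which come from transcript ends and so do not scale with transcript length.

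**Figure D1:**
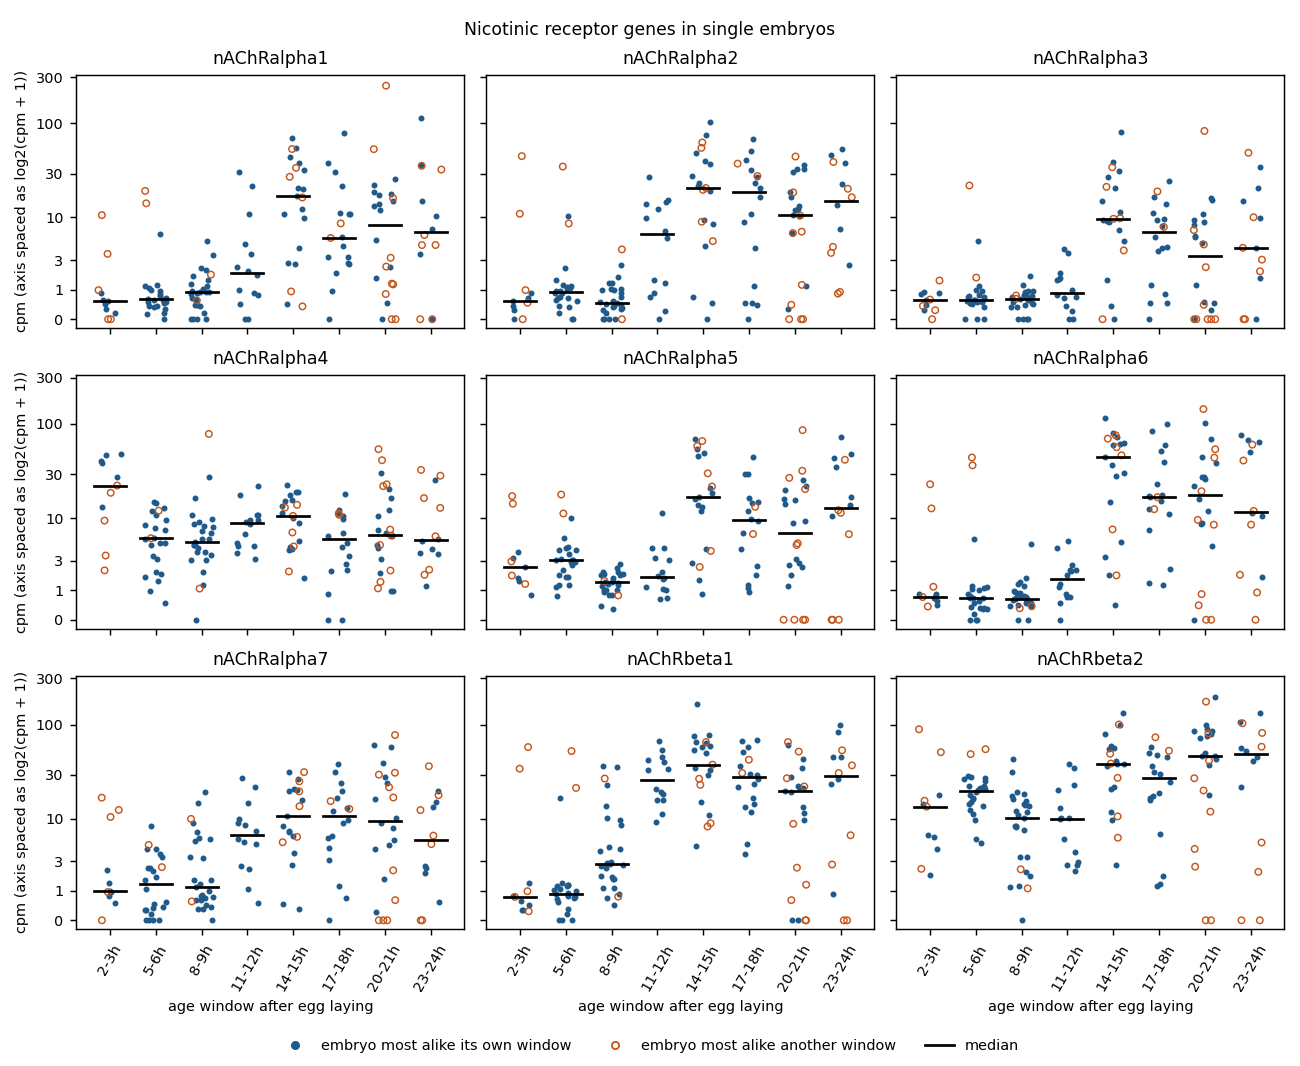
Level of each of the 9 detected receptor genes in every used embryo, in cpm on an axis spaced as log2(cpm + 1), by age window. Filled points are embryos most alike their own window, open points embryos most alike another, and bars are medians. nAChRalpha6 has its highest median, 45.8 cpm, at 14-15h, whereas nAChRalpha4 has its highest median, 22.7 cpm, at 2-3h.

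Among the 3 neighbours on 3R, nAChRalpha1 and nAChRalpha2 were near 0 in the first 3 windows and nAChRbeta2 was not. nAChRalpha1 and nAChRbeta2 are subunits in which changes give resistance to neonicotinoids. The medians of nAChRalpha1 were 0.541, 0.603 and 0.881 cpm at 2-3h, 5-6h and 8-9h, and those of nAChRalpha2 were 0.541, 0.904 and 0.482 cpm. The medians of nAChRbeta2 were 13.6, 20.0 and 10.03 cpm in the same windows, resting on 1505, 4858 and 2581 counts. From 11-12h to 23-24h the medians of nAChRalpha1 were 1.98, 17.1, 5.86, 8.80 and 6.83 cpm, those of nAChRalpha2 6.43, 21.1, 18.98, 10.6 and 15.3 cpm, and those of nAChRbeta2 9.98, 39.1, 27.5, 46.9 and 49.5 cpm. Both alpha genes thus had their highest median at 14-15h and nAChRbeta2 at 23-24h.

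nAChRalpha3, nAChRalpha5 and nAChRalpha6 stayed low until 11-12h and were high at 14-15h. nAChRalpha6 is the target of spinosad, and nAChRalpha5 and nAChRalpha6, with nAChRalpha7, are the fly subunits closest to vertebrate alpha7. The highest nAChRalpha3 median before 14-15h was 0.880 cpm, at 11-12h, and its median at 14-15h was 9.67 cpm. The medians of nAChRalpha5 were between 1.42 and 3.09 cpm up to 11-12h and between 6.94 and 17.0 cpm from 14-15h on. Those of nAChRalpha6 were between 0.634 and 1.61 cpm up to 11-12h, and 45.8, 16.9, 18.0 and 11.7 cpm from 14-15h on. All 3 genes thus had their highest median at 14-15h.

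nAChRbeta1 was the first of the fly subunits to be cloned, and nAChRalpha7 is needed in the giant fibre escape circuit. At 11-12h both had higher medians than nAChRalpha3, nAChRalpha5 and nAChRalpha6, as did the other detected genes. nAChRbeta1 had medians of 0.735, 0.880, 2.78 and 27.1 cpm at 2-3h, 5-6h, 8-9h and 11-12h, and its 11-12h embryos ran from 9.18 to 67.6 cpm, with none at 0. Its later medians were 38.2, 28.5, 19.9 and 28.9 cpm. nAChRalpha7 had medians of 1.00, 1.35, 1.20 and 6.56 cpm in the first 4 windows and 10.6, 10.9, 9.53 and 5.70 cpm in the last 4. The ranges of nAChRalpha7 overlapped widely between all windows, for example 0.306 to 31.9 cpm at 14-15h against 0.497 to 27.6 cpm at 11-12h.

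nAChRalpha4, a subunit known for its part in adult sleep, ran against the others. Its levels were 2.20 to 49.2 cpm at 2-3h with a median of 22.7 cpm, and its medians were 5.80, 5.24, 8.79, 10.6, 5.68, 6.46 and 5.56 cpm in the 7 later windows. At 2-3h the 5 embryos most alike another window had 2.20, 3.54, 9.36, 18.96 and 22.7 cpm, and the other 6 had 13.1 to 49.2 cpm. The mean of 24.99 ± 17.3 cpm over all 11 embryos (SD) was 36.4 ± 13.7 cpm over the 6 embryos most alike their own window. Some later embryos were as high. An 8-9h embryo most alike 2-3h had 78.9 cpm, and a 20-21h embryo most alike 2-3h had 41.98 cpm, while another 20-21h embryo at 54.8 cpm was most alike 14-15h.

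Consecutive windows were compared with edgeR's quasi-likelihood test on the counts, with library as a covariate and Benjamini-Hochberg adjustment over all 15877 genes, and a gene is called at an adjusted p under 0.05. Changes are log2 fold changes with the standard error (SE). The study collected embryos from separate cages, but the samples carry no label of cage or parents. The p-values therefore set each change against the spread between embryos, and do not cover differences between cages or egg collections.

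At 5-6h against 2-3h, 1 of the 9 genes changed. nAChRalpha4 had 0.486 to 14.9 cpm in the 24 embryos of 5-6h, with a median of 5.80 cpm, against 2.20 to 49.2 cpm in the 11 embryos of 2-3h, with a median of 22.7 cpm. All 24 embryos of 5-6h were below the 2-3h median, although the ranges overlapped. nAChRalpha4 fell by 2.10 on the log2 scale (SE 0.51, adjusted p = 0.0030), a 4.29-fold lower level, and was lower in 4 of 4 libraries. At 2-3h libraries E1_1, E1_2, E2 and E3 held only 1, 4, 4 and 2 embryos, and those of E3 were most alike 5-6h. Among embryos most alike their own window nAChRalpha4 fell by 3.01 (adjusted p = 2.9e-07). Without library E2 the change was -2.29 but lost its call (adjusted p = 0.068), and with the small-cluster samples included it was -1.07 (adjusted p = 0.11). Over all genes 1.67% were called higher and 4.71% lower in this comparison. The other 8 genes had adjusted p-values above 0.05, and the median change of the 9 was -0.52, beside -0.03 over all genes.

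At 8-9h against 5-6h, 5 of the 9 genes fell, where 15.4% of all genes were called lower and 11.7% higher. They were nAChRalpha2, nAChRalpha3, nAChRalpha5, nAChRalpha6 and nAChRbeta2. The fall of nAChRalpha5 held in all 14 alternative settings. It had 0.298 to 2.75 cpm at 8-9h, with a median of 1.42 cpm, against 0.745 to 18.1 cpm at 5-6h, with a median of 3.09 cpm. The median of 5-6h thus lay above every embryo of 8-9h. The log2 change of nAChRalpha5 was -1.71 (SE 0.42, adjusted p = 7.3e-04), lower in 4 of 4 libraries. nAChRbeta2 had 0 to 43.4 cpm at 8-9h, with a median of 10.03 cpm, against 5.13 to 55.5 cpm at 5-6h, with a median of 20.0 cpm. It fell by 1.26 (SE 0.40, adjusted p = 0.010), also lower in 4 of 4 libraries, and was at -1.02 (adjusted p = 0.11) with the small-cluster samples included.

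The falls of nAChRalpha2, nAChRalpha3 and nAChRalpha6 at 8-9h were smaller in the settings that left out the 2 embryos of 5-6h most alike 14-15h. No setting left out these 2 alone, so their own part was not tested. nAChRalpha6 had 44.8 and 37.1 cpm in these 2 embryos, while the next highest 5-6h embryo had 5.70 cpm and the 8-9h embryos ran from 0 to 4.97 cpm. Its change was -2.28 (SE 0.55, adjusted p = 6.0e-04) with all embryos, -0.35 (adjusted p = 0.55) with embryos most alike their own window, and -0.42 (adjusted p = 0.68) without library E2, which holds both. nAChRalpha3 had 22.4 cpm in 1 of the 2, and its change of -1.52 (SE 0.52, adjusted p = 0.018) became -0.80 (adjusted p = 0.17) and -0.91 (adjusted p = 0.31) in these settings, and -1.51 (adjusted p = 0.11) without library E1_1. nAChRalpha2 had 35.5 cpm in 1 of the 2, and its change of -2.04 (SE 0.56, adjusted p = 0.0027) was -1.32 (adjusted p = 0.024) with embryos most alike their own window and lost its call without library E2 (-1.47, adjusted p = 0.10). nAChRbeta1, at 53.0 and 21.7 cpm in the 2 embryos, went the other way. Its change was 0.69 (SE 0.52, adjusted p = 0.35) with all embryos, 1.80 (adjusted p = 1.4e-04) with embryos most alike their own window, and 1.87 (adjusted p = 0.023) without library E2. In the same comparison 6 of 8 body wall muscle markers fell, led by wupA (-2.27) and Mlc1 (-2.18), and the summed level of the 8 reached 31421 cpm in a 5-6h embryo, beside a 5-6h median of 547 cpm. With embryos most alike their own window 3 of the 8 fell and 1 rose. The median change of the 9 receptor genes was -1.26, beside -0.14 over all genes.

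At 11-12h against 8-9h, 3 of the 9 genes rose and none fell, where 11.2% of all genes were called higher and 6.74% lower. They were nAChRalpha1, nAChRalpha2 and nAChRbeta1. nAChRalpha2 had 0 to 27.6 cpm at 11-12h, with a median of 6.43 cpm, against 0 to 4.19 cpm at 8-9h, with a median of 0.482 cpm. Its 11-12h median was above every 8-9h embryo, although 1 embryo of 11-12h had no count. nAChRalpha2 rose 10.2-fold, a log2 change of 3.35 (SE 0.60, adjusted p = 6.8e-06), was higher in 4 of 4 libraries and kept its call in all 14 alternatives.

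nAChRbeta1 had 9.18 to 67.6 cpm at 11-12h, with a median of 27.1 cpm, against 0.422 to 36.6 cpm at 8-9h, with a median of 2.78 cpm. The lowest 11-12h embryo was above the 8-9h median, and the ranges overlapped in the upper 8-9h embryos. Its log2 change was 1.94 (SE 0.54, adjusted p = 0.0054), higher in 4 of 4 libraries, and 1.87 (adjusted p = 0.063) without library E1_1. nAChRalpha1 had 0 to 31.2 cpm at 11-12h, with a median of 1.98 cpm, against 0 to 5.30 cpm at 8-9h, with a median of 0.881 cpm. It rose by 2.52 (SE 0.62, adjusted p = 0.0012), but a few embryos carried this, since the top 3 of 11-12h had 31.2, 22.2 and 11.0 cpm. In a limma fit on quantile-normalized log2 values its change was 0.96 (adjusted p = 0.41). With the small-cluster samples included, nAChRalpha1 was at 1.28 (adjusted p = 0.11) and nAChRbeta1 at 1.40 (adjusted p = 0.053). nAChRalpha7 was at 1.20 (SE 0.55, adjusted p = 0.12) and was called in none of the 8 comparisons nor in this comparison's alternatives. The median change of the 9 genes was 1.03, beside -0.08 over all genes.

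At 14-15h against 11-12h, 5 of the 9 genes rose and none fell, where 15.6% of all genes were called higher and 10.6% lower. The risers were nAChRalpha2, nAChRalpha3, nAChRalpha5, nAChRalpha6 and nAChRbeta2, each higher in 4 of 4 libraries. nAChRalpha6 had 0.422 to 115 cpm at 14-15h, with a median of 45.8 cpm, against 0 to 5.37 cpm at 11-12h, with a median of 1.61 cpm. Most 14-15h embryos were above every 11-12h embryo, and the lowest of them were not. nAChRalpha6 rose 19.9-fold, a log2 change of 4.31 (SE 0.72, adjusted p = 6.2e-07).

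nAChRalpha3 had 0 to 81.1 cpm at 14-15h, with a median of 9.67 cpm, against 0 to 4.27 cpm at 11-12h, with a median of 0.880 cpm. It rose by 3.80 (SE 0.70, adjusted p = 5.5e-06). nAChRalpha5 had 0.844 to 70.3 cpm at 14-15h, with a median of 17.0 cpm, against 0.640 to 11.3 cpm at 11-12h, with a median of 1.73 cpm. It rose by 3.29 (SE 0.56, adjusted p = 1.0e-06). In both genes, as in nAChRalpha6, the 14-15h median lay above the highest 11-12h embryo, and all 3 kept their call in the 14 alternatives.

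nAChRbeta2 had 2.68 to 132 cpm at 14-15h, with a median of 39.1 cpm, against 2.23 to 38.4 cpm at 11-12h, with a median of 9.98 cpm. It rose by 1.96 (SE 0.53, adjusted p = 0.0022), and by 1.71 (adjusted p = 0.064) without library E1_1. nAChRalpha2 had 0 to 103 cpm at 14-15h, with a median of 21.1 cpm, against 0 to 27.6 cpm at 11-12h, with a median of 6.43 cpm. Its rise of 1.87 (SE 0.67, adjusted p = 0.027) lost its call without library E1_1 (2.02, adjusted p = 0.095), E2 (1.83, adjusted p = 0.085) or E3 (1.81, adjusted p = 0.053), with the same direction. nAChRalpha1 missed the threshold at 1.73 (SE 0.72, adjusted p = 0.062) and was called in 9 of the 14 alternatives. nAChRalpha7 was at 0.75 (adjusted p = 0.39), nAChRbeta1 at 0.56 (adjusted p = 0.54) and nAChRalpha4 at 0.40 (adjusted p = 0.63). The median change of the 9 was 1.87, beside -0.02 over all genes.

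The windows in which genes were called differed between the members. nAChRalpha1 and nAChRbeta1 were called at 11-12h and not at 14-15h, and nAChRalpha2 at both. nAChRalpha3, nAChRalpha5, nAChRalpha6 and nAChRbeta2 were called at 14-15h and not at 11-12h. This sorting depended in part on the setting. At 14-15h nAChRalpha1 was called in 9 and nAChRalpha2 in 11 of the 14 alternatives, and nAChRbeta1 was called higher at 8-9h in 3 of 14. Whether one member's change differs from another's was not tested.

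**Figure D2:**
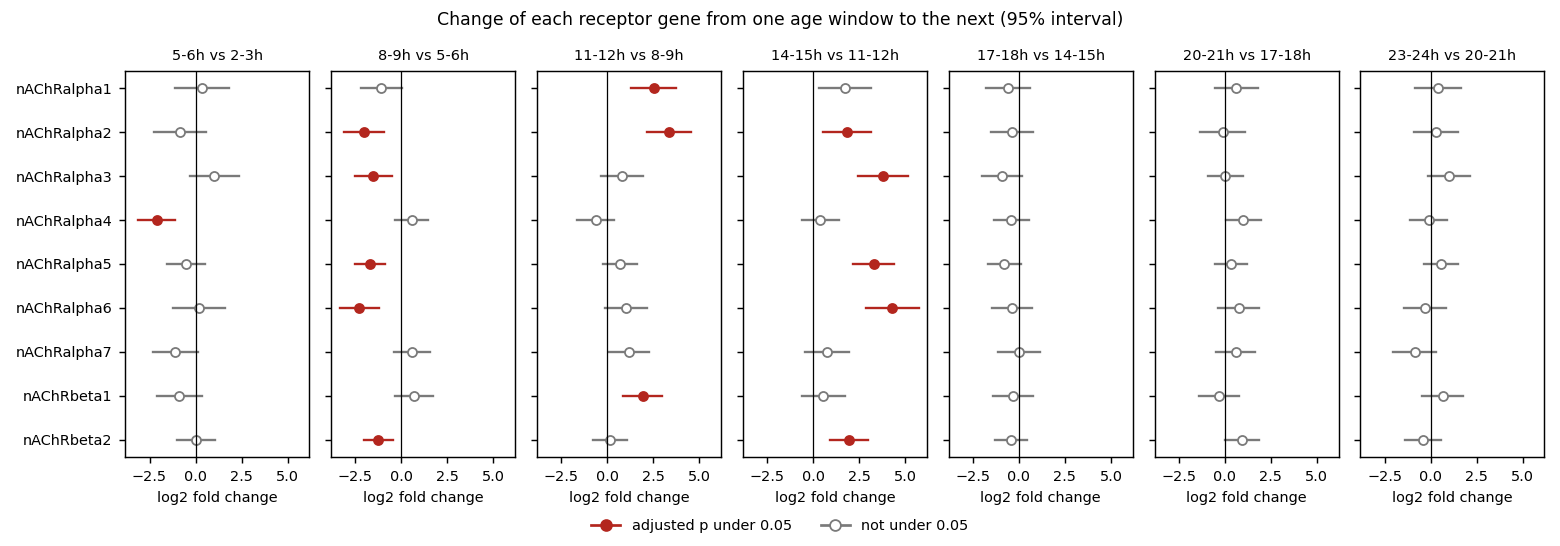
Log2 fold change of each of the 9 genes (rows) in the 7 comparisons of consecutive windows (columns, later against earlier), with normal 95% intervals from edgeR's quasi-likelihood fit. Filled red points have an adjusted p under 0.05. The filled points are left of 0 for 1 gene at 5-6h and for 5 genes at 8-9h. They are right of 0 for 3 genes at 11-12h and for 5 at 14-15h, and no later comparison holds a filled point.

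After 14-15h none of the 9 genes was called. The shares of all genes called in either direction were 4.36% at 17-18h against 14-15h, 15.5% at 20-21h against 17-18h, 4.48% at 23-24h against 20-21h, and 16.8% at 23-24h against 14-15h. By edgeR's quasi-likelihood test, the receptor genes with an unadjusted p under 0.05 numbered 0, 2, 0 and 0 in these comparisons. limma called 0, 1, 0 and 0 of them and DESeq2 called 0 in each. The pair with a low unadjusted p at 20-21h against 17-18h was nAChRalpha4 at 1.02 (SE 0.50) and nAChRbeta2 at 0.94 (SE 0.46), both with an adjusted p of 0.16. For nAChRbeta2 the embryos ran from 0 to 193 cpm at 20-21h, with a median of 46.9 cpm, against 1.26 to 73.8 cpm at 17-18h, with a median of 27.5 cpm. With embryos most alike their own window it was called at 1.51 (adjusted p = 0.0084).

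These late comparisons leave sizeable changes possible. At 23-24h against 14-15h the 9 fitted changes lay between -0.25 and 0.49, but their 95% intervals reached from -1.48 to 1.84 and were 1.99 to 2.79 wide. nAChRalpha6, for example, had 0 to 76.1 cpm at 23-24h, with a median of 11.7 cpm, against 0.422 to 115 cpm at 14-15h, with a median of 45.8 cpm, and a change of 0.07 (SE 0.60). The fit carries a term for library, and the 23-24h embryos came from libraries E2 and E3 only. nAChRalpha3 at 23-24h against 20-21h was at 0.98 (adjusted p = 0.37) and was called without library E2, at 2.88 (adjusted p = 0.013).

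The enzymes and carriers of acetylcholine were compared as a fixed list of 4 genes. ChAT makes the transmitter, VAChT loads it into vesicles, ChT takes choline back up, and Ace, the acetylcholinesterase, breaks it down. All 4 rose at 11-12h against 8-9h, by 2.31 (ChAT), 1.65 (VAChT), 2.15 (ChT) and 2.36 (Ace), and 3 of 4 rose again at 14-15h against 11-12h, by 2.46 (ChAT), 2.42 (ChT) and 1.63 (Ace). The median changes of the 4 were 2.23 and 2.03, where 11.2% and 15.6% of all genes were called higher. None of the 4 was called in the other 6 comparisons. The 3 muscarinic receptors, which signal through G proteins, were called in part at 11-12h, where mAChR-A rose by 3.54, and in full at 14-15h, where mAChR-A rose by 2.40 and mAChR-B by 3.29. mAChR-A also fell at 8-9h (-2.81 with all embryos and -1.90 with embryos most alike their own window). The third, mAChR-C, was called higher at 14-15h from a mean of only 0.16 cpm, with no count in any 11-12h embryo, so no fold is given. With embryos most alike their own window 2 of the 3 muscarinic receptors were called higher at 14-15h.

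The list of 6 genes for receptor assembly, editing and regulation did not follow the receptors as a group. RIC-3, a chaperone of nicotinic receptors, fell at 5-6h (-1.63) and rose at 8-9h (1.10) and at 11-12h (1.78). qvr, whose product binds nicotinic receptors and lowers their activity, rose at 11-12h (2.47). CG13920, matched by a RefSeq synonym to NACHO, a chaperone known from mammals, rose at 8-9h (2.55) and fell at 14-15h (-1.03). Adar, the enzyme that edits receptor transcripts among others, also fell at 14-15h (-1.06). Thus 2 of the 6 rose at 11-12h against 8-9h, none rose and 2 fell at 14-15h against 11-12h, with list medians of -0.10 and -0.68. Over all genes 11.2% were called higher at 11-12h and 10.6% lower at 14-15h.

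Other receptors of the same Cys-loop family respond to GABA, glutamate, histamine or pH. Of 9, 3 fell at 8-9h against 5-6h, namely the GABA receptor subunit genes Rdl (-1.99) and Lcch3 (-2.16) and the histamine receptor gene HisCl1 (-2.20). All 3 kept this call with embryos most alike their own window, at -1.22, -1.19 and -1.84. Of the same 9, the GABA receptor subunit gene Lcch3 (3.45) and pHCl-1 (1.37) rose at 11-12h, and Rdl (4.18) and GluClalpha (2.24) rose at 14-15h. Over all genes 15.4% were called lower at 8-9h, and 11.2% and 15.6% higher at 11-12h and 14-15h. HisCl1 was called higher at 20-21h and lower at 23-24h. Of the 6 glutamate receptor genes of the neuromuscular junction, 5 rose at 11-12h, led by GluRIIC (4.71) and GluRIIA (4.13), and only Neto rose at 14-15h (1.87). GluRIIC (-1.86) and Neto (-1.25) fell at 8-9h with all embryos, but were at -0.73 and -0.21 with embryos most alike their own window, both with an adjusted p above 0.05. Genes of the receiving side in muscle mostly rose at 11-12h and 5 of the 9 nicotinic genes at 14-15h, a difference that was not itself tested.

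**Figure D3:**
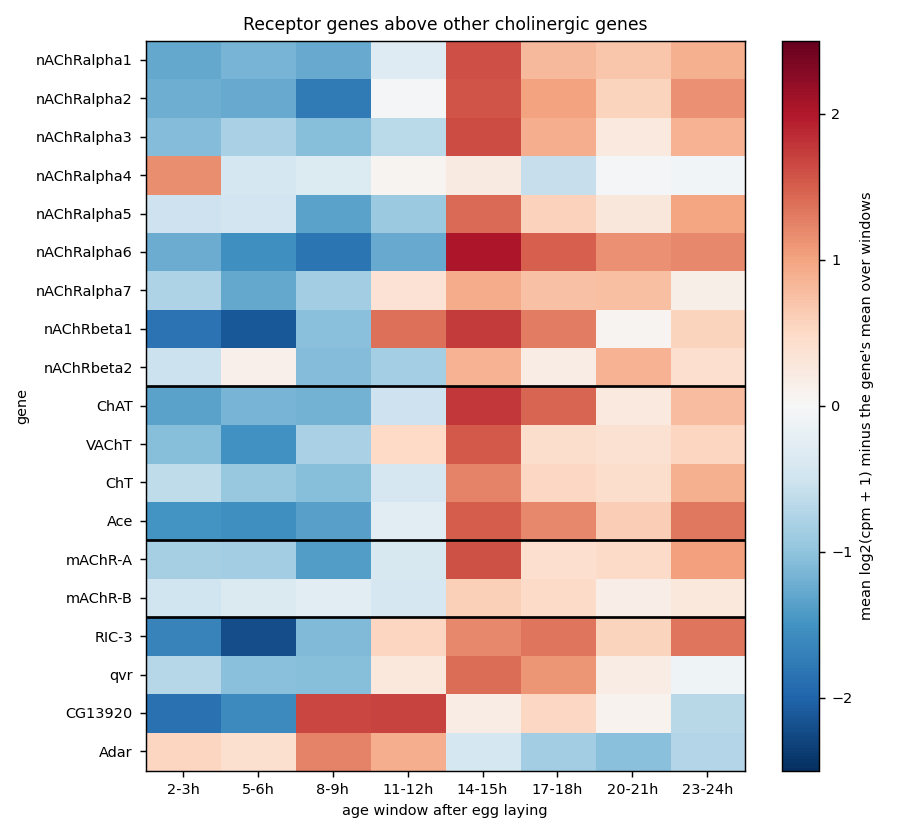
Mean log2(cpm + 1) in each age window minus the gene's own mean over the 8 windows, for the 9 receptor genes (top), the 4 genes of acetylcholine synthesis, transport and breakdown, mAChR-A and mAChR-B, and 4 genes of assembly, regulation and editing (bottom). Red is above and blue below a gene's mean. nAChRalpha4 is highest at 2-3h, Adar at 8-9h, CG13920 at 11-12h and RIC-3 at 17-18h, and the other 15 genes at 14-15h.

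Markers of neurons and of other cells moved in the same windows. Over all genes 11.2% were called higher and 6.74% lower at 11-12h, and 15.6% higher and 10.6% lower at 14-15h. Of 12 neuron and synapse genes, 5 rose at 11-12h against 8-9h and 6 at 14-15h against 11-12h, among them the sodium channel gene para (3.16) and the synaptic genes cpx (2.80) and Snap25 (2.45) at 14-15h. The summed level of the 12 had medians of 824 cpm at 14-15h, with a range of 172 to 1880, against 438 cpm at 11-12h, with a range of 194 to 1527. elav and fne, early neuronal genes, rose at 8-9h against 5-6h, by 1.99 and 3.06, as did futsch (1.11), while the synaptic gene Syt1 fell (-1.18). With embryos most alike their own window 4 of the 12 genes rose in this comparison and none fell, so the fall of Syt1 lost its call. Over all genes 11.7% were called higher and 15.4% lower at 8-9h. elav had its highest mean at 8-9h, 208 cpm, where nAChRalpha2, nAChRalpha3 and nAChRalpha6 had means of 0.771, 0.613 and 0.854 cpm. All 5 neural progenitor genes fell at 11-12h and 4 of 5 at 14-15h (3 of 5 with embryos most alike their own window). Of 8 body wall muscle genes, 8 rose at 11-12h and 7 at 14-15h, and their summed median was 36952 cpm at 14-15h against 8242 cpm at 11-12h. Of 5 glial genes, Gs2 rose and gcm fell at 14-15h, and of 4 hemocyte genes Col4a1 and Hml rose. With embryos most alike their own window no glial gene rose and 1 fell at 14-15h, and 1 hemocyte gene rose and 1 fell. No marker list had a gene at 0 in all samples. The part of these cell types in the receptor changes was not tested.

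For each of the 9 genes the most alike profile over the 8 windows was sought among 10154 genes with a mean above 1 cpm, by the mean absolute difference of centred log2(cpm + 1) means. It was CG42613 for nAChRalpha1 (0.119), Lrp4 for nAChRalpha2 (0.0878), Eaat2, a transporter of excitatory amino acids, for nAChRalpha3 (0.135), cN-IIIB for nAChRalpha4 (0.141), Fife, a presynaptic active zone gene, for nAChRalpha5 (0.146), CG18635 for nAChRalpha6 (0.145), AgmNAT for nAChRalpha7 (0.140), MtnA, a metallothionein gene, for nAChRbeta1 (0.105) and FMRFa, a neuropeptide gene, for nAChRbeta2 (0.249). Within the family nAChRalpha1 and nAChRalpha2 were the closest pair (0.201), and nAChRalpha4 was the farthest member from 6 of the other 8 genes. nAChRbeta2, their neighbour on 3R, was most alike nAChRalpha5 (0.378). These are descriptions over 8 means that share libraries.

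The spread between embryos of one age was measured as the adjusted SD. This is the SD in a window divided by the SD over all windows that the gene's mean over all windows predicts. Normalized values below 0, or with a count of 0, were set to 0. The level within a window was not corrected for. Over the 8 windows the adjusted SD averaged 0.729 for nAChRalpha4 to 0.946 for nAChRbeta2, with a median of 0.816 over the 9 genes, beside 0.738 over 9898 genes. In 8 of the 9 genes it was above that median, and the genes' percentiles ran from 46.7 (nAChRalpha4) to 94.4 (nAChRbeta2). Without ComBat 6 of the 9 were above the median of all genes, with the small-cluster samples included 7, and with counts thinned to 300000 in each embryo all 9. No test was made of this. At 8-9h nAChRalpha1, nAChRalpha2, nAChRalpha3 and nAChRalpha6 had adjusted SDs of 0.149, 0.105, 0.136 and 0.110, beside an all-gene median of 0.575, in a window where their medians were under 1 cpm. With thinned counts the same 4 values were 0.430, 0.407, 0.447 and 0.344, beside 0.654, and with the small-cluster samples included they were 0.539, 0.292, 0.526 and 0.338. At 14-15h the 4 genes had 1.19, 1.18, 1.34 and 1.18, beside 0.704, and with thinned counts 1.04 to 1.19, beside 0.742. At 23-24h the values of the 9 were between 0.866 (nAChRalpha4) and 1.44 (nAChRbeta2), beside 0.932.

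**Figure D4:**
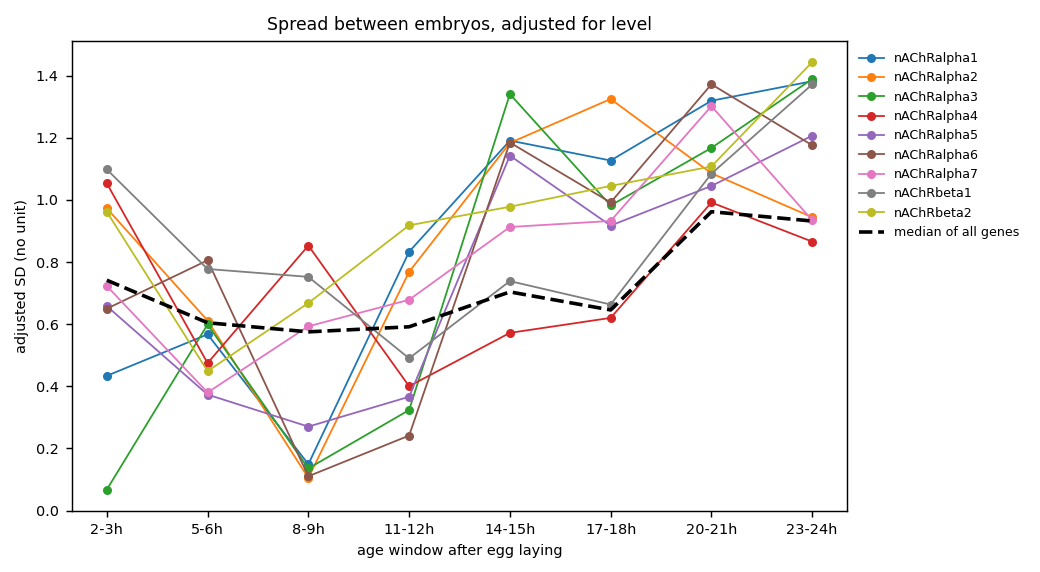
Adjusted SD (no unit) of the 9 receptor genes by age window, with the median of all genes as a dashed line. The measure corrects for a gene's mean level over all windows, not for its level within a window. The lines of nAChRalpha1, nAChRalpha2, nAChRalpha3 and nAChRalpha6 lie between 0.105 and 0.149 at 8-9h and between 1.18 and 1.34 at 14-15h.

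Single embryos show what this spread holds. At 20-21h 1 embryo, most alike 17-18h, had the highest level of 5 receptor genes, with 245 cpm of nAChRalpha1, 83.6 of nAChRalpha3, 86.5 of nAChRalpha5, 143 of nAChRalpha6 and 77.9 cpm of nAChRalpha7. The next highest 20-21h embryos had 54.1 cpm of nAChRalpha1 and 16.5 cpm of nAChRalpha3. At the other end, 3 of the 24 embryos of 20-21h had no count of nAChRalpha1 and 4 had none of nAChRbeta1. nAChRbeta1 had a count in every embryo of 11-12h, 14-15h and 17-18h. The 20-21h embryos most alike 2-3h had totals of 4936156, 692506, 407201 and 786071 counts. The one with 692506 counts had the lowest family sum of the window, 1.44 cpm. The part of shallow embryos and of those most alike another window in these missing counts was not tested.

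The samples of the small cluster, which entered no comparison, held nAChRalpha4 and little of the other subunits. From 2-3h to 23-24h the medians of nAChRalpha4 in these samples were 58.4, 65.9, 106, 105, 64.6, 31.1, 64.5 and 45.0 cpm (25, 10, 9, 12, 5, 4, 9 and 23 samples). In each of the 8 windows this was above the median of the used embryos. At 5-6h every small-cluster sample, 41.9 to 122 cpm, lay above every used embryo, 0.486 to 14.9 cpm. The medians of the other 8 detected subunits in the small cluster were between 0 and 3.18 cpm in all windows. In the same samples the summed level of 5 maternal genes had medians of 146 to 357 cpm, against 36.6 to 124 cpm in the used embryos, and that of the 5 neural progenitor genes 3.59 to 10.9 cpm, against 12.9 to 173 cpm. The receptor genes were left out of the scaling, and the small cluster was not tested against the used embryos.

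**Figure D5:**
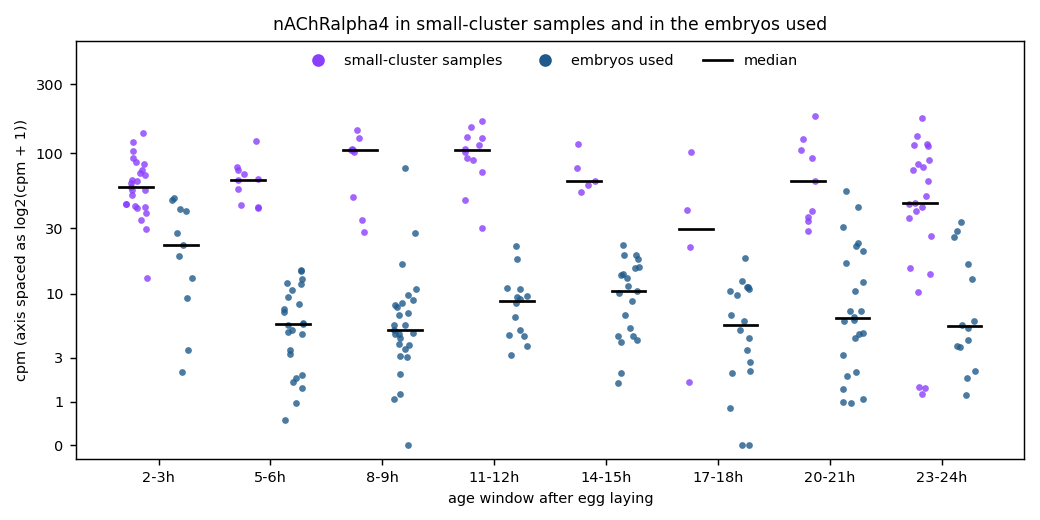
Level of nAChRalpha4 in small-cluster samples (left, purple) and in the used embryos (right, blue) of each age window, in cpm on an axis spaced as log2(cpm + 1), with medians as bars. The small-cluster medians lie between 31.1 and 106 cpm, and the medians of the used embryos between 5.24 and 22.7 cpm.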

How the data were processed

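The authors demultiplexed the BRB-seq reads, trimmed poly(A) stretches, mapped them with STAR to the BDGP6 genome (Ensembl release 91) and counted reads per gene with HTSeq. They deposited raw counts of 17698 genes in 288 samples, with no normalization. Samples were grouped by the age window in their titles. One 20-21h embryo also carries a label of 17-18h and was kept by its title. Levels are cpm, a gene's counts over the sample's total on genes, scaled to 1e+06. Samples with 300000 or more counts and 4500 or more genes above 0 passed. These were normalized by quantiles in voom (limma 3.58.1) and by ComBat (sva 3.50.0) at a mean cpm above 1 (9898 genes), for the scaling and the adjusted SD. The limits, normalization and adjusted SD follow the study's methods, but genes of all types were kept, where the study kept protein-coding genes, and the distance of the scaling, 1 minus Spearman's correlation, was chosen here.

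Tests used edgeR 4.0.16 (TMM, robust quasi-likelihood fit, window and library terms) in R 4.3.3, with Benjamini-Hochberg adjustment over 15877 genes in each of 8 comparisons. Gene symbols came from a name table that matched 17560 IDs. The text names all 10 receptor genes, genes of the lists, and the gene of most alike profile for each. Members and lists were chosen with earlier results of these data known. One maternal gene of the list found no match by symbol and was left out. In counts simulated for 14-15h against 11-12h (15775 genes), the test recovered 20 of 100 genes changed 2-fold and 72 of 100 changed 4-fold, with 32 false calls among 15575. Alternatives covered gene filters, normalization, DESeq2 1.42.0 and limma, the library term, the sample set, depth thinned to 300000 counts, and each library left out. The gene lists were also tested with embryos most alike their own window, an alternative chosen after seeing the data.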

Additional observations from a re-analysis of the deposited data

Results flagged for a closer look

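Reads of the receptor genes also appeared in samples that entered no comparison. The 97 samples of the small cluster held 39443 reads of nAChRalpha4. In the same samples nAChRalpha1 had 309 reads, nAChRalpha2 had 425, nAChRalpha3 had 411, nAChRalpha5 had 1014, nAChRalpha6 had 478, nAChRalpha7 had 309, nAChRbeta1 had 941 and nAChRbeta2 had 939. The 38 samples that failed the depth limits held 1100 reads of the receptor genes, in 29 of the samples. Each of these sums is above the 3 counts that a count of 0 allows. No sample of either kind serves as a control for the others, and the values are given as a description.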

How the results depend on the processing

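Of the 14 calls of receptor genes, examined in 14 alternatives each, all 196 values kept their direction and 174 kept their call. Of 58 uncalled results, 18 of the 812 values under alternatives were called. With the small cluster included, the calls at 5-6h against 2-3h numbered 0 in place of 1, at 8-9h against 5-6h 3 in place of 5, and at 11-12h against 8-9h 1 in place of 3. In that setting 1 gene each was called at 20-21h against 17-18h (nAChRalpha4, 1.73) and at 23-24h against 20-21h (nAChRalpha7, -1.56), each in place of 0, and the median adjusted SD of the 9 genes was 0.891 in place of 0.816. In limma 3 genes were called at 8-9h (2 lower and nAChRbeta1 higher) and 1 at 20-21h (nAChRalpha4, 1.31). With embryos most alike their own window 1 gene was called at 20-21h (nAChRbeta2, 1.51) and 1 at 23-24h (nAChRalpha5, 1.61). Without library E2 the calls were 0 at 5-6h, 3 at 8-9h (nAChRalpha5 and nAChRbeta2 lower, nAChRbeta1 higher) and 1 at 23-24h (nAChRalpha3, 2.88). Without library E1_1 they were 3 at 14-15h against 11-12h. The cause was not tested. Without the embryo of conflicting age labels no receptor call changed. DESeq2's size factors moved the median of all genes at 8-9h against 5-6h to -0.28, beside -0.14 with TMM, and kept the 5 calls.

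No paired analysis was possible because the labels give plate wells, not replicate numbers shared between age windows. Early values of low genes rest on few counts, such as 58 of nAChRalpha3 over 11 embryos at 2-3h and 185 of nAChRalpha2 over 27 at 8-9h. Embryos of 23-24h had a median total of 1964400 counts, the lowest of the 8 windows.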
